A study of Rattus norvegicus with 4 samples.

Results

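Inflammasomes are protein complexes that assemble in the cytosol of macrophages and activate inflammatory caspases. A sensor protein recruits the adaptor encoded by Pycard (also called ASC), the adaptor gathers caspase-1, and the active caspase matures interleukin-1β and interleukin-18 and cuts gasdermin D, whose fragment forms pores in the cell membrane. Alveolar macrophages take up inhaled particles, and the sensor encoded by Nlrp3 is known for responding to particles that damage the phagosome.

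The transcripts of this machinery were described here through 9 genes: the sensors Nlrp3, Nlrc4, Aim2 and Nlrp1a, the Nlrp3 partner kinase Nek7, the adaptor Pycard, the caspases Casp1 and Casp4, and the pore-forming effector Gsdmd. Members were found by matching the array's accessions to rat RefSeq symbols. This matched 6 of the 9 genes, with 9 probes, among 16506 named genes measured. Nlrc4, Aim2 and Gsdmd had no matched probe and were not analysed here.

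The samples were 4 biological replicates of NR8383, an established line of rat alveolar macrophages that grows partly attached and partly floating. All belonged to 1 control group, without any particle, drug or genetic change: cells at 20 passages, grown with 15% fetal bovine serum, seeded for 48 h in flasks and held for 4 h in DMEM medium with 10% fetal bovine serum. The labels add the letters ALI, which they do not spell out. Total RNA of each replicate was hybridised to 1 one-colour array, so the design holds no comparison between treatments, and the results are which members were detected and how far the replicates agreed.

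Levels are given as the log2 of the processed signal divided by the 75th percentile of signal on the same array. This percentile ranged from 83.4 to 167 intensity units and was lowest on replicate 1. Levels can be compared between arrays for 1 probe and not between probes. The number of arrays limits the precision. Replicate 1 stood apart from the others, with Pearson's r over detected genes between 0.969 and 0.978 against 0.986 to 0.993 among replicates 2 to 4, so values are also given without it. Of 10 macrophage markers, 9 were well above background on all 4 arrays, among them Cd68 and Spi1, and the scavenger receptor gene Marco was well above background on 1 array.

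The sequence before the transcription start is shown for Nlrp3, Pycard and Casp1, since these are the sensor, the adaptor and the caspase of 1 complex and their values on replicate 1 parted. The windows are RefSeq promoters of the GRCr8 build, running from 250 bases before to 50 bases after the annotated start, read on the gene's own strand. They lie at chr10:44827848-44828147 (plus strand) for Nlrp3, chr1:192033370-192033669 (minus strand) for Pycard and chr8:10872580-10872879 (plus strand) for Casp1. Capitals mark exact matches to any of 8 short motifs described under the sequences.
Nlrp3: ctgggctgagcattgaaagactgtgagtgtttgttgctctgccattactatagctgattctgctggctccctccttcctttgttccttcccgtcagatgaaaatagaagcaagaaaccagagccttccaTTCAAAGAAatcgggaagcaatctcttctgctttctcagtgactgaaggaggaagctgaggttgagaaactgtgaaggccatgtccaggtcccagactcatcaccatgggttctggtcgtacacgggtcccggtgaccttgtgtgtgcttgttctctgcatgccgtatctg
Pycard: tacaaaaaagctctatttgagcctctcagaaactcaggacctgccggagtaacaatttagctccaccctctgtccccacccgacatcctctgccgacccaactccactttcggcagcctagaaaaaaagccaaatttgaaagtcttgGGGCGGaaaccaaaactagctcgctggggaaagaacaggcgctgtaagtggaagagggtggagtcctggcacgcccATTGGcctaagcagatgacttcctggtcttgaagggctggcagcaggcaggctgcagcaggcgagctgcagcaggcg
Casp1: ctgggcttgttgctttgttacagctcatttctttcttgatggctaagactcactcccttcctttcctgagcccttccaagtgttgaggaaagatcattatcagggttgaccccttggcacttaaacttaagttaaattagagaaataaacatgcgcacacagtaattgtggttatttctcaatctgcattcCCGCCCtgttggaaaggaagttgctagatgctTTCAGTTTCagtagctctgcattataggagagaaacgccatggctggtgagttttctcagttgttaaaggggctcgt

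The motifs were searched on both strands. They were the TATA box TATAAA, the CCAAT box CCAAT, the GC box GGGCGG, the core of the site of the myeloid factor PU.1 GAGGAAGT, the interferon response core GAAANNGAA, the interferon-γ activated sequence TTCNNNGAA, the kappaB sequence GGGACTTTC and the AP-1 site TGANTCA, and no marked match overlaps another. The Pycard window held a GC box starting at -103 and a reverse CCAAT box at -27 from the start. The Casp1 window held a reverse GC box at -59 and a reverse interferon response core at -27. The Nlrp3 window held 1 match, an interferon-γ activated sequence at -121. Over 33469 promoter windows of the same length, 33.1% held a GC box, 37.5% a CCAAT box, 9.71% an interferon response core and 8.87% an interferon-γ activated sequence, and 14.2% held a TATA box, 2.42% the PU.1 core, 0.326% the kappaB sequence and 7.33% the AP-1 site. A match describes the letters of these windows and is not a binding site shown by these data. RefSeq windows were also found for Aim2, Nek7 and Nlrp1a, and G and C made up 43.3% of the Casp1 window, 55% of that of Pycard and 65% of that of Nek7.

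NR8383 cells in control medium carried transcripts of sensor, adaptor and caspases together. Of the 6 measured members, 5 were detected, meaning that at least 1 probe was well above background on all 4 arrays: Nlrp3, Nlrp1a, Pycard, Casp1 and Casp4. Among all named genes measured, 53.1% were detected by the same rule, and 34.4% were well above background on no array, which was true of no measured member. Nek7 was well above background on 3 arrays, and at least 3 arrays were reached by all 6 members against 57.3% of named genes. Without replicate 1 all 6 were detected, against 56.2% of named genes. In RNA from whole cultures, a larger share of cells with a transcript and more of it per cell cannot be told apart.

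A test against background across all probes called all 6 members, Nek7 included. Limma's moderated one-sided test compared each probe with the 95th percentile of the negative control spots of its array, with Benjamini-Hochberg adjustment over 45280 probes. Every one of the 9 member probes passed, as did at least 1 probe of 70.1% of named genes. The XM_006246453 probe of Nlrp3 lay 6.94 ± 0.22 log2 units above that background (SE, n = 4, limma adjusted p = 4.86e-12) and the probe of Casp1 6.94 ± 0.23 (adjusted p = 6.1e-12). Nearest to the threshold was the Nlrp1a probe that was well above background on 3 arrays, which lay 2.57 ± 0.39 log2 units above the negative controls (SE, n = 4, limma adjusted p = 3.96e-05). The software's looser positive-and-significant flag was also set for all 6 members on all arrays, against 66.9% of named genes.

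**Figure D1:**
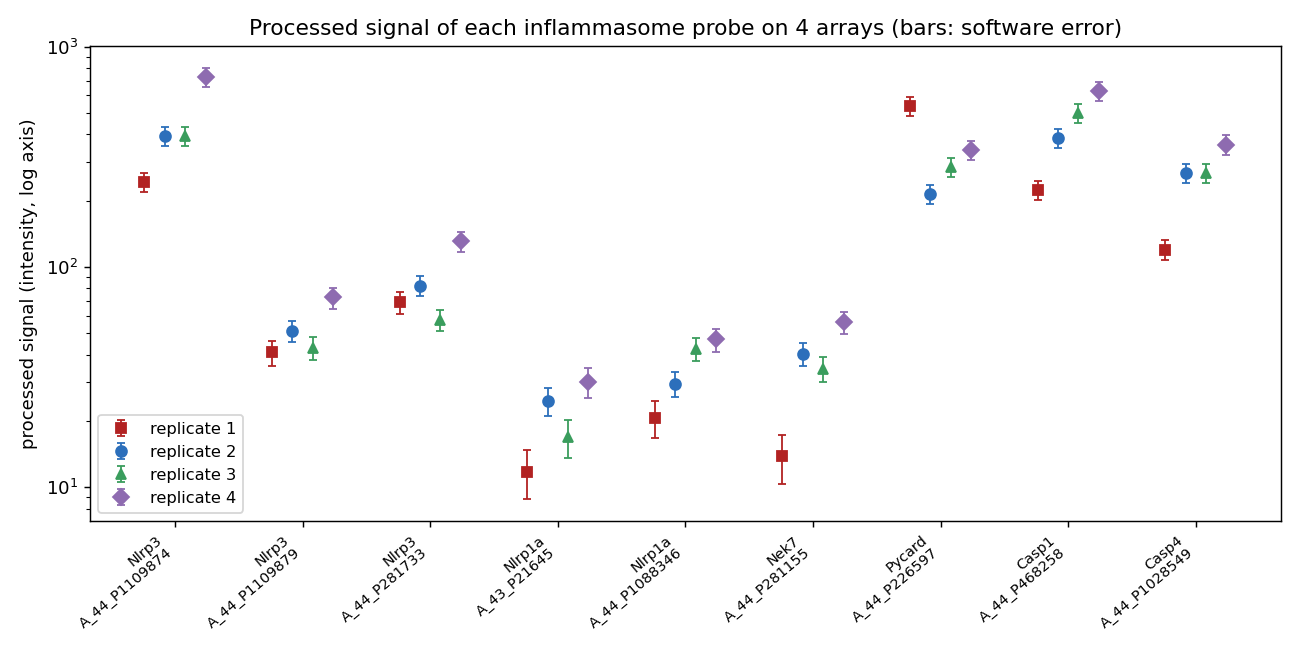
Processed signal in intensity units (log axis) of each of the 9 member probes on the 4 arrays, with the scanner software's error estimate as bars. Heights of different probes cannot be compared, and 8 of the 9 probes were brightest on replicate 4 and the Pycard probe on replicate 1.

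Nlrp3 encodes the sensor that responds to potassium efflux and membrane damage, and it was read by 3 probes. The probe for the transcript XM_006246453 gave processed signals of 244, 392, 392 and 731 on replicates 1 to 4. The 2 probes for NM_001191642 gave 69.0, 82.2, 57.4 and 131, and 40.9, 51.3, 43.0 and 72.7. All 3 were well above background on every array.

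After scaling, the Nlrp3 probes disagreed on the place of replicate 1. The XM_006246453 probe read 1.55 on replicate 1, against 1.63 to 2.13 on replicates 2 to 4, so replicate 1 was lowest there. On the probes for NM_001191642 replicate 1 was highest, at -0.27 against -1.14 to -0.36 and at -1.03 against -1.56 to -1.13. Averaged over the 3 probes, the Nlrp3 level was 0.08, 0.08, -0.35 and 0.19 on replicates 1 to 4, a mean of -0.0012 ± 0.24 (SD, n = 4). Replicate 3 was the array farthest from that mean, and replicate 1 lay within the range of the others.

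Nek7, a mitotic kinase that binds Nlrp3 and is needed for its assembly, was read by 1 probe and missed detection on 1 array. Its processed signal was 13.8 on replicate 1, where it was not well above background, and 40.4, 34.5 and 56.2 on replicates 2 to 4. The software's error was 25.2% of the signal on replicate 1, against 11.2% to 12.7% on replicates 2 to 4. Its level was -2.59 on replicate 1 and between -1.87 and -1.47 elsewhere, where the SD was 0.21 (n = 3). Limma placed it 3.29 ± 0.38 log2 units above the negative controls (SE, n = 4, adjusted p = 2.7e-06).

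Nlrp1a encodes a sensor that is known in rats for its cleavage by the anthrax lethal factor protease. One of its 2 probes was well above background on all arrays, with signals of 20.6, 29.6, 42.5 and 46.9. The other read 11.8, 24.7, 16.9 and 30.1 and fell short of the call on replicate 1 only. Its scaled level, taken from the probe detected on all arrays, was -2.02, -1.92, -1.57 and -1.84 on replicates 1 to 4, a mean of -1.84 ± 0.19 (SD, n = 4). This was the smallest SD among the detected members. On replicate 1 the level was 0.24 log2 units below the mean of the others, and under normexp background correction it was 0.08 above them. The other probe read -2.82 on replicate 1, within the range of -2.90 to -2.18 on replicates 2 to 4. No direction is therefore given.

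Pycard encodes the adaptor, a small protein with a pyrin domain and a caspase recruitment domain that polymerises into the speck of an active inflammasome. Its single probe gave processed signals of 536, 214, 284 and 340 on replicates 1 to 4. Replicate 1 was the brightest although it was the dimmest array overall: 8 of the 9 member probes, and 86.3% of detected genes, were brightest on replicate 4, and 4.45% of detected genes were brightest on replicate 1.

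Scaled to each array, the Pycard level was 2.68, 0.94, 1.17 and 1.02 on replicates 1 to 4. Replicates 2 to 4 lay close together, at a mean of 1.04 with an SD of 0.12 (n = 3), and replicate 1 lay 1.64 log2 units above that mean, a 3.12-fold difference. Over all 4 arrays the level was 1.45 ± 0.83 (SD, n = 4). A rise of more than 2-fold on replicate 1, against the average of replicates 2 to 4, was seen in 4.16% of detected genes, and the Pycard difference was at percentile 99.5 of all detected genes. It stayed between 1.22 and 1.66 under normexp correction, quantile normalization, the percentile over detected probes and without a dim patch of the array surface, alternatives chosen for this value after the data were seen. With 1 array against 3 of the same group, no test between groups was made.

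The spot of Pycard was not marked as an outlier on any array, but a probe with 1 spot was kept only if this held. The software's error was between 10.0% and 10.1% of its signal, as it was for the Casp1 probe. Whether the spot itself was at fault was not tested. Detected probes within 5 rows and 5 columns of it on the array (21 probes) had a median difference of -0.02 log2 units between replicate 1 and the others, with a highest value of 0.89. None of these spots read as far above the other arrays as Pycard. Around the Casp1 probe, 28 detected probes had a median difference of 0.41, with values from -1.62 to 3.35. The Casp1 probe itself read -0.47. Around the remaining member probes the median lay between -0.09 and 0.15. No probe of any member lay in the dim patch of replicate 4 or its margin.

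Casp1 encodes caspase-1, the protease of the complex. Its probe gave processed signals of 223, 386, 499 and 630 on replicates 1 to 4, each well above background. The level was 1.42, 1.78, 1.98 and 1.91 on replicates 1 to 4, a mean of 1.77 ± 0.25 (SD, n = 4). Replicate 1 lay below the others by 0.47 log2 units, so that their mean was 1.39-fold higher, and without it the level was 1.89 ± 0.10 (SD, n = 3).

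Casp4, known in rodents as caspase-11, encodes a caspase that binds bacterial endotoxin in the cytosol and cuts gasdermin D without a sensor, as shown in mice. Its gene lies beside Casp1, with 1 annotated gene between them. The processed signals were 120, 268, 266 and 359. The level was 0.52, 1.26, 1.07 and 1.102 on replicates 1 to 4, a mean of 0.99 ± 0.32 (SD, n = 4). As for Casp1, the other arrays did not overlap with replicate 1, and their mean was 1.54-fold higher. Both caspases were lower on replicate 1 under every scaling tried. Among all detected genes, the difference on replicate 1 was at percentile 14.6 for Casp1 and 9.14 for Casp4, so many genes were lower there by more.

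**Figure D2:**
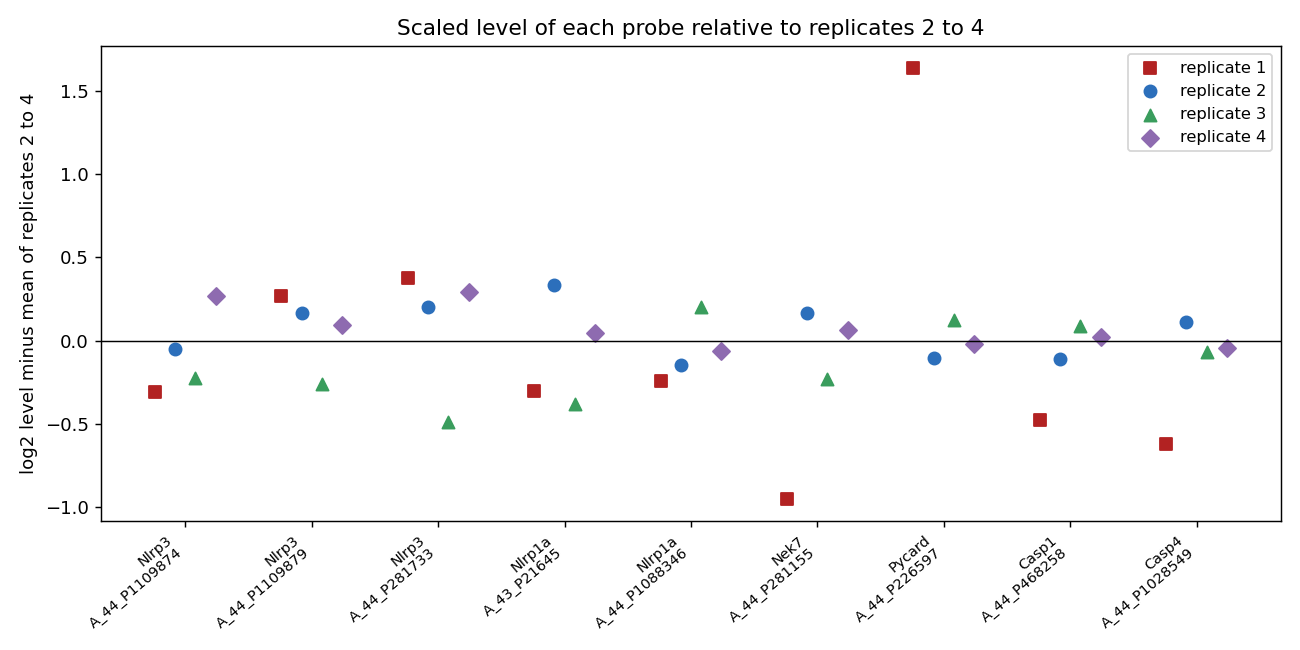
Log2 level of each member probe on each array minus the mean of replicates 2 to 4. Replicate 1 (squares) lies at 1.64 for Pycard and at -0.47 and -0.62 for Casp1 and Casp4, while replicates 2 to 4 of these 3 probes stay near 0.

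The members therefore did not move together between replicates. Of the 5 detected members, replicate 1 lay above the range of the others for 1 (Pycard), below it for 3 and within it for Nlrp3. The 3 were Casp1, Casp4 and Nlrp1a, the last neither under normexp nor on its other probe. The place of Nlrp3 depended on its probes and arrays: replicate 1 lay outside the range of the others on each of the 3 probes alone, and above it without replicate 4, by 0.22 from the mean. Among all detected genes replicate 1 lay above the range of the others for 42.3% and below it for 32.8%, so such separation was common on these arrays. Replicate 1 was the array farthest from the mean for 3 of the 5 members and for 54.7% of detected genes. The median difference between replicate 1 and the others was -0.24 over the 5 members and 0.07 over all detected genes.

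Setting 2 members of 1 array against each other removes the scaling between arrays. The log2 ratio of Pycard to Casp1 varied by 0.08 among replicates 2 to 4, and on replicate 1 it was 2.11 above their mean. The ratio of Pycard to Casp4 was 2.26 above, with a range of 0.42 among the others, and that of Pycard to Nlrp1a 1.88 above, with a range of 0.12. The ratio of Casp1 to Casp4 on replicate 1 was 0.15 above the mean of the others, within their range of 0.38. The ratio of Nlrp3 to Pycard on replicate 1 stood at -1.53 from the mean of the others, with a wider range of 0.69 among them. Pycard thus parted from Casp1 and Casp4 on replicate 1, and these 2 caspases kept their ratio within the spread of the other arrays. These ratios follow from the levels given above and are not separate evidence, and the share of gene pairs parting by as much was not counted.

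**Figure D3:**
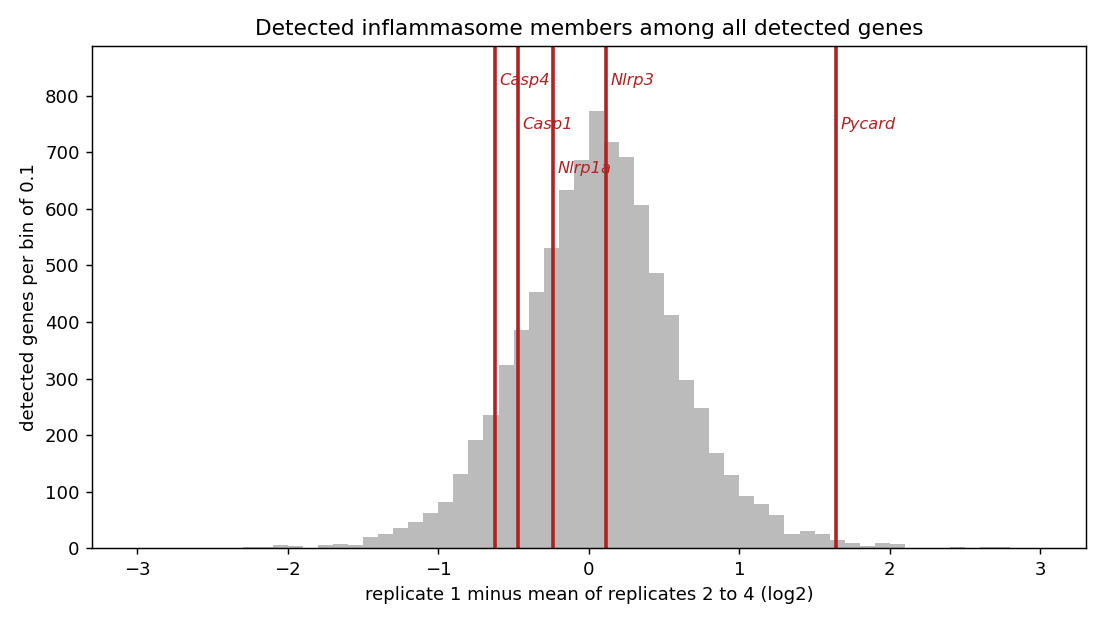
Number of detected genes (bins of 0.1) by their log2 difference between replicate 1 and the mean of replicates 2 to 4, with a line for each of the 5 detected members. Pycard lies in the upper tail at 1.64, and the other 4 members lie between -0.62 and 0.11.

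The median SD of the 5 members was 0.25, beside 0.24 over the 8772 detected genes, with a range from 0.19 (Nlrp1a) to 0.83 (Pycard). Without replicate 1 the 6 members detected on replicates 2 to 4 had a median SD of 0.11, beside 0.15 for the genes detected on all 4 arrays. Among detected genes of similar level, in 20 bins, the SD of Pycard was at percentile 98.6, and without replicate 1 at percentile 46.2. The SD of Nlrp3 without replicate 1 was 0.29, at percentile 84.9.

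By root mean square difference of the 4 deviations from a gene's own mean, the genes nearest in pattern to Pycard, the most variable member, were Tmem106a (0.042), Camkmt (0.056) and Dnase1l3 (0.060). Tmem106a, for example, read 0.65 on replicate 1, against -1.20 to -0.91 on replicates 2 to 4. With 4 arrays this likeness rests on replicate 1.

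Most markers of other cells were not detected, and they were set beside the Pycard reading. None of 5 epithelial and none of 4 fibroblast markers was detected. Limma and the positive-and-significant flag called Krt18 and Col1a1 among them, and Col1a1 was well above background on 1 array. Of 4 measured neutrophil markers Elane, S100a8 and S100a9 were flagged well above background on none of the arrays (limma called S100a9), with Camp detected. Of the T and NK cell markers Cd3e and Cd8a were well above background on no array, while 3 of 5 were detected, and Pax5 was detected of the 2 measured B cell markers. The summed level of the neutrophil markers, in multiples of the array's 75th percentile, was 6.74 on replicate 1, against 3.71 to 5.05 on replicates 2 to 4. Nearly all of it was Camp, the gene of an antimicrobial peptide, whose log2 level was 2.73 on replicate 1 and 1.84 to 2.28 on the rest. The T and NK cell markers summed to 2.13 against 1.82 to 2.30. B cell markers summed to 1.28 against 1.18 to 1.404, epithelial markers to 0.198 against 0.130 to 0.205 and fibroblast markers to 0.161 against 0.142 to 0.215. The macrophage markers summed to 858 on replicate 1 and to between 690 and 776 on the others. Of the 9 detected, replicate 1 lay above the range of the others for 5, with Mrc1, the mannose receptor gene, 1.36 log2 units above their mean, below it for 1 (Spi1, at -0.20) and within it for 3, with Cd68 at -0.03. Among all detected genes, replicate 1 lay above the range of the others for 42.3% and below it for 32.8%. The marker sums add probes of different brightness, so a few bright probes can carry them. The part of other cells in the Pycard reading was not tested.

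The wider pathway was taken from a list of 73 related genes, of which 59 had a probe. Of these 46 were detected (78.0%, beside 53.1% of named genes), 53 by the positive-and-significant flag (beside 66.9%) and 52 by limma (beside 70.1%). Their median difference on replicate 1 was 0.04, beside 0.07 over all detected genes. Replicate 1 lay above the range of the others for 20 of the 46, beside 42.3% of detected genes, and below it for 14, beside 32.8%. The counts of detected genes by role that follow stand beside the same 53.1% of named genes.

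Transcripts of the caspase-1 substrates interleukin-1β and interleukin-18 were detected, while Gsdmd, the gene of a further substrate, had no matched probe. Il1b read 5.93 on replicate 1, against 6.92 to 7.24 on replicates 2 to 4, and Il18 had a mean of 4.71 ± 0.13 (SD, n = 4). Il1a, the related cytokine that caspase-1 does not cut, lay at 5.66 ± 0.25, and the epithelial alarmin Il33 was well above background on 1 array.

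Other sensors were detected in 2 of 6 cases, Nod1 and Nlrx1, which encode a receptor for bacterial cell wall fragments and a mitochondrial family member. Nod1 read 1.985 on replicate 1, against 1.25 to 1.46 on replicates 2 to 4, and Nlrx1 lay at 4.57 ± 0.25 (SD, n = 4). On replicate 1 Nlrx1 read 4.26, against 4.53 to 4.86 on replicates 2 to 4. No array had Nlrp12 or Mefv, the gene of the sensor pyrin, well above background. The DNA-sensing adaptor gene Sting1 lay at -0.37 ± 0.26, on 1 of its 2 probes, and the nucleic acid sensor gene Zbp1 at -1.75 ± 0.42. Zbp1 read -1.21 on replicate 1, against -2.09 to -1.63 on replicates 2 to 4.

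Dpp9, whose product holds Nlrp1 proteins inactive, lay at 2.89 ± 0.12 (SD, n = 4), and its relative Dpp8 was well above background on 3 arrays. Of the 8 channel genes upstream of Nlrp3, 6 were detected. The ATP-gated P2rx4 lay at 0.19 ± 0.10, the potassium channel Kcnk6 at 1.37 ± 0.13 and the volume-regulated channel subunit Lrrc8a at -0.54 ± 0.19. The exceptions were P2rx7, the ATP-gated channel used in many experiments to trigger Nlrp3, well above background on 1 array, and Panx1 on none. Replicate 1 lay above the range of the others for 4 of the 6, beside 42.3% of detected genes. It lay below that range for 1, beside 32.8%. That gene was Clic4, named after its values were seen, which read -1.02 on replicate 1, against 0.32 to 0.51 on replicates 2 to 4.

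Regulators of Nlrp3 were detected in 12 of 13 cases, with the helicase gene Dhx33 on 2 arrays as the exception. Txnip, a thioredoxin-binding protein reported to bind Nlrp3, read 2.98 on replicate 1, against 1.81 to 2.08 on replicates 2 to 4. Brcc3, the deubiquitinase that licenses Nlrp3, read 0.32 on replicate 1, against 1.22 to 1.60 on replicates 2 to 4. The kinase gene Btk lay at 1.59 ± 0.07 (SD, n = 4).

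Receptors that prime the pathway were detected in 4 of 4 cases. Tlr4, the endotoxin receptor, read 1.495 on replicate 1, against 0.95 to 1.29 on replicates 2 to 4. Its co-receptor Cd14 was lower there, at 1.20 against 1.92 to 2.21, as was Tlr2, a receptor for bacterial lipoproteins, at 4.32 against 4.89 to 5.07.

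Of 7 other caspases 6 were detected, and Casp12 was well above background on 2 arrays. Casp2 lay at 1.27 ± 0.25 and Casp6 at 1.28 ± 0.22 (SD, n = 4 each). Both were higher on replicate 1, Casp2 (on 2 of its 3 probes) at 1.585 against 0.98 to 1.28 and Casp6 at 1.59 against 1.07 to 1.26. Replicate 1 lay above the range of the others for 4 of the 6, beside 42.3% of detected genes, and below it for 1.

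None of the other gasdermins measured (Gsdma, Gsdmc and Gsdme) was well above background on any array, and Gsdma carried the positive-and-significant flag on all of them. Ninj1, whose product ruptures the membrane of dying cells, lay at 2.63 ± 0.15 (SD, n = 4). The membrane repair genes Chmp3 and Vps4a lay at 2.51 ± 0.08 and 0.99 ± 0.10.

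Genes that act around cytosolic endotoxin were detected in 4 of 4 cases. The interferon-induced guanylate-binding protein genes Gbp2 and Gbp5 were higher on replicate 1, at 3.33 against 2.49 to 2.65 and at -0.49 against -1.56 to -1.52, as was the related Irgm, at 0.54 against -0.08 to 0.27. Among the 3 genes that restrain caspases, Cflar, an inhibitor of caspase-8, read -0.36 on replicate 1, against 0.85 to 0.88 on replicates 2 to 4. This rests on 1 of its 2 probes, the other not being detected. The protease inhibitor genes Serpinb1a and Serpinb9 (on 1 of its 2 probes) were higher on replicate 1, at 5.03 against 4.05 to 4.27 and at 1.68 against 1.34 to 1.38. For single genes, the sign of the difference from the mean of the others held under normexp, quantile normalization, the percentile over detected probes and without the dim patch. Under normexp most differences were smaller, such as Clic4 (-0.66 in place of -1.44) and Tlr4 (0.13 in place of 0.43). Some were larger, such as Il1b (-1.25 in place of -1.10). Whether replicate 1 stayed outside the range of the others was not rechecked for these genes.

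**Figure D4:**
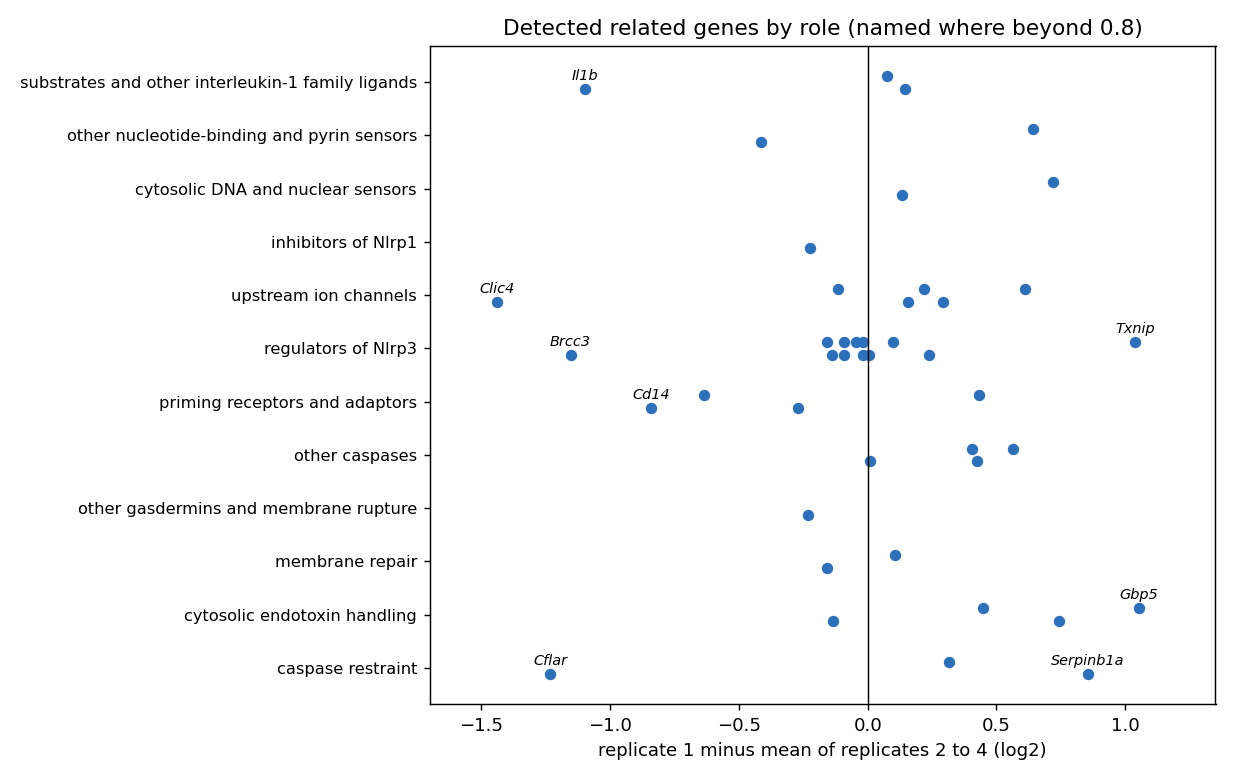
Log2 difference between replicate 1 and the mean of replicates 2 to 4 for 44 of the 46 detected related genes, 1 point a gene, by role. Genes beyond 0.8 in either direction are named, from Clic4 at -1.44 to Gbp5 at 1.05, and the median of all 46 is 0.04.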

How the data were processed

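Feature Extraction 11.0.1.1 of Agilent read the scans, per the submitters' processing notes. Each deposited array holds, for every spot, a linear intensity (the processed signal) and its error, the median foreground and background intensity, and flags of 0 or 1. None of these is scaled between arrays, per the file headers. The 4 arrays shared 1 slide and 1 scan, so neither could be tested as a batch. Control spots (4259 of 62976) and outlier spots (440 to 1206 per array) were left out, no spot was saturated, and spots of a probe were averaged as log2 values. This gave 45280 probes, of which 20990 were named by accession through RefSeq (GRCr8), used for names only.

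The main setting was log2 processed signal minus the array's 75th percentile over these probes. Detection of a probe required most of its spots to be well above background on every array, and a gene's level is the mean of its detected probes. Limma's detection test fitted all probes with an intensity trend. It was tested on simulated data with known levels. Probes set 1.5, 2, 3 and 5 log2 units above the threshold were recovered in 0%, 34%, 76% and 98% of cases. The unraised probes were set below the threshold, so false calls at the threshold itself were not tested. Few simulated probes were raised, while 70.1% of named genes were called on the real arrays. The Benjamini-Hochberg cutoff was therefore stricter in the simulation, and its recovery does not give that on the real arrays. R 4.3.3, limma 3.58.1 and Python 3.11.15 were used. The dim patch is the rectangle of rows 166 to 216 and columns 73 to 88 around the 77 detected probes that lost over 2 log2 units on replicate 4 relative to the other arrays, with a margin of 5. The members and lists were chosen with earlier results of these data known. Named genes are all members, the first 3 detected and first 2 detected on no array of each role, exceptions where there are 3 or fewer, and the 3 nearest patterns. Marker genes named with values were chosen after these were seen, and other genes outside this rule are said to be so. A few genes of the lists are counted but not reported singly here.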

Additional observations from a re-analysis of the deposited data

Results flagged for a closer look

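One reading stood far from the others of its group. The gap between the Pycard level on replicate 1 and the nearest other array was 0.866 of the whole range over the 4 arrays, above Dixon's 95% critical value for 4 samples. Of 10 profiles examined (5 detected members and the 5 probes of Nlrp3 and Nlrp1a), 1 passed. The profiles overlap, since the Nlrp1a level is that of 1 of its probes and the Nlrp3 level is the mean of its 3. For a single profile chance gives about 1 in 20, and 8.41% of all detected genes passed. What set the Pycard reading apart was not tested.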

How the results depend on the processing

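The number of members detected ranged from 4, with the first probe of each gene alone, to 6, and was between 5 and 6 when a replicate was left out. Of the related genes between 45 and 53 were detected over all alternatives. The limma count was 6 under each alternative, including the 99th percentile or the median of negative controls and normexp. The median SD of the members, 0.25, ranged from 0.24 to 0.37 with all arrays, and from 0.11 (without replicate 1) to 0.31 with a replicate left out. Their median difference on replicate 1, -0.24, lay between -0.39 and -0.10 under all alternatives. Of 54 member levels under alternatives, 42 moved by less than the SD over replicates. The 12 others include all 5 under the percentile over detected probes, which sets another zero point. The Nlrp3 level was 1.78 from its first probe alone and -0.55 from the median probe. Under normexp on median signals the SD of Casp1 was 0.41 in place of 0.25. Signal over background limits what can be read of Nek7 and of 1 Nlrp1a probe on replicate 1. No paired analysis was possible because the series has 1 group.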
